A study of Mus musculus with 3 samples.

Results

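Redox defence and iron handling were followed here through 40 genes, 40 of the 50600 genes counted in T-helper 1 (Th1) cells of the mouse. They are a list of names by known role, and the rule uses no measured value, although the list was drawn up with earlier results of these data known. There were 11 genes of the thioredoxin system, 9 of the glutathione system, 3 of superoxide and hydrogen peroxide removal, 5 of the NRF2 response and heme breakdown, and 12 of iron handling. The question was how the thioredoxin, glutathione and iron genes stood against each other in these cells. The samples were 3 libraries of primary Th1 cells of strain C57BL/6NJ, the CD4 T cells known for interferon gamma. A name in the file headers reads 72 hours and sorted, and the labels give no treatment or genetic change and record age as unknown. All 3 libraries form 1 group, are numbered as biological replicates 1, 2 and 3, and carry the same donor record. The p-values below measure only differences between these libraries, which may be technical, or between genes within them. Total RNA is the labelled assay, although the title of the library protocol says PolyA+.

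Cells remove peroxides through parallel electron chains that both start from NADPH. In the thioredoxin chain, thioredoxin reductase reduces thioredoxin, and thioredoxin reduces the peroxiredoxins that break down hydrogen peroxide. In the glutathione chain, glutathione reductase keeps glutathione reduced for the glutathione peroxidases and glutaredoxins. Iron enters T cells bound to transferrin, is stored in ferritin, and is built into heme and iron-sulfur clusters. Free ferrous iron reacts with hydrogen peroxide, so iron storage and peroxide removal are often described together. Proliferating T cells are known for high demand on transferrin-bound iron.

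Iron handling genes are controlled in part through RNA hairpins that the iron regulatory proteins, encoded by Aco1 and Ireb2, bind when iron is scarce. The hairpin loops found in members are shown because they link the ferritin genes, the transferrin receptor and the iron exporter whose levels are compared below. The search took a bulged C, 5 bases, the loop CAGTGN with a last base other than G, and 5 bases that pair with the first 5. It covered the sense strand of the untranslated regions of GENCODE release 21 transcripts (GRCm38). Hairpins that depart from this pattern were not searched for, so members without a match here may still carry one. The first 3 sites lie in 5′ untranslated regions and the last 4 in the 3′ untranslated region of Tfrc, and capitals mark the loop.
Fth1, chr19:9982732-9982760, plus strand: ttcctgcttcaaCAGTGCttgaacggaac
Ftl1, chr7:45459779-45459807, minus strand: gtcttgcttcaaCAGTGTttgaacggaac
Slc40a1, chr1:45925465-45925493, minus strand: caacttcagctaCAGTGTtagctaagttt
Tfrc, chr16:32631219-32631247, plus strand: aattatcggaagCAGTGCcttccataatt
Tfrc, chr16:32631598-32631626, plus strand: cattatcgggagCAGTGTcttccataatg
Tfrc, chr16:32631663-32631691, plus strand: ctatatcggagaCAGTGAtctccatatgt
Tfrc, chr16:32631710-32631738, plus strand: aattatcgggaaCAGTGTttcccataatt
Over all 21877 coding genes, 23 (0.105%) held such a match in a 5′ and 100 (0.46%) in a 3′ untranslated region. In the 5′ hairpin, bound iron regulatory protein is known to block translation, and in the 3′ hairpins of Tfrc it is known to protect the RNA from decay.

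Some redox enzymes carry selenocysteine, an amino acid written by a TGA codon that would otherwise end the protein. Of the members, 3 held a TGA in frame before the last codon of their coding sequence: the glutathione peroxidases Gpx1 and Gpx4 and the thioredoxin reductase Txnrd1. They are shown because these codons tie both peroxide chains to selenium. Capitals mark the TGA.
Gpx1, codon 47 of 202, chr9:108339439-108339465, plus strand: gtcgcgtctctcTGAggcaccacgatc
Gpx4, codon 73 of 198, chr10:80054725-80054751, plus strand: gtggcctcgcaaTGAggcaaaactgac
Txnrd1, codon 612 of 614, chr10:82896025-82896045, plus strand: cagtctggctgcTGAggttaa
Codons were counted from the start codon with the stop codon included, in GENCODE release 21 on GRCm38. Among 21501 genes with a complete coding sequence, 29 (0.135%) held an in-frame TGA of this kind.

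The transcription factor NRF2, encoded by Nfe2l2, is known to bind antioxidant response elements near genes of both chains. The RefSeq promoter table (GRCm38.p6), with 250 bases before and 50 after each start site, held windows for 31 of the 40 members. The letters TGACNNNGC were searched on both strands, where the other strand reads GCNNNGTCA. They occurred in windows of 8 members: Gclm, Ncoa4, Nfe2l2, Nfs1, Prdx1, Sod1, Srxn1 and Txnrd1. Of all 27025 genes in the table, 3781 (13.99%) had a window with the letters. The 4 matches in thioredoxin and glutathione genes are shown with the letters in capitals, because these genes range from Srxn1, near the counting floor, to Prdx1.
Gclm, -134 from the start site, chr3:122245413-122245441, plus strand: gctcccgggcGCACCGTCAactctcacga
Prdx1, -133 from the start site, chr4:116685456-116685484, plus strand: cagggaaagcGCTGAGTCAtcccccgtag
Srxn1, 28 from the start site, chr2:152105542-152105570, plus strand: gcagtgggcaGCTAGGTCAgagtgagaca
Txnrd1, -92 from the start site, chr10:82859104-82859132, plus strand: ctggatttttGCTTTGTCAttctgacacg
A match describes the letters of the window and is not a binding site.

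The libraries held 4482916, 266790 and 3733531 counts in replicates 1, 2 and 3, so replicate 2 was 16.8-fold shallower than replicate 1. For a gene of 2000 bp, 3 counts equalled 11.6 TPM in replicate 2 but 0.717 and 0.737 TPM in replicates 1 and 3. TPM, the field's unit for expression per length, is the length-scaled share of a library, computed from the counts and the exon length of each gene. Genes whose exons share bases with a gene on the other strand, here called overlapped, were 16.18% of all genes and held 51.7%, 55.1% and 66.5% of the counts. All 11 Th1 markers reached a mean of 1 TPM, among them Tbx21 and Ifng, and all 8 T-cell markers did. Of 55 markers of other cells, 40 were below 1 TPM and 28 had no fragment. Among red cell markers, which matter for iron genes, the 4 globin genes were at 0 counts and the list summed to 6.54, 22.6 and 10.6 TPM. Alas2 (overlapped) made up most of that sum. Among macrophage markers Lyz2, Adgre1, Itgam and Mertk were at 0, and the list summed to 96.9, 131 and 144 TPM, mostly from Csf1r (overlapped). Cd68, a macrophage marker with no overlap, had a mean of 12.7 TPM. Markers of other cells with no overlap that also passed 1 TPM included the B-cell genes Ighm and Cd79a, with means of 23.15 and 8.227 TPM. They also included the T-helper 2 genes Il13 and Il4, with means of 9.763 and 9.612 TPM. The part of such cells in the member levels was not tested. In bulk RNA, fewer cells of a type and less RNA per cell cannot be told apart. Levels refer to the strand that was counted, and the sources used here do not give which strand of a fragment carries the RNA. Facing genes often held more counts than members, as given near the end, so a printed level may belong to the opposite strand of the gene named.

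The 40 members ranged from 0 to 651 TPM. The highest on the strand counted were Sod1, the cytosolic superoxide dismutase, Fth1, the heavy ferritin chain, and Txn1, the cytosolic thioredoxin. Gm10252, which faces Ftl1, had a mean of 4973 TPM, so this order depends on which strand carries the RNA. A mean of at least 1 TPM was reached by 37 of 40 members, against 47.8% of all 21764 protein-coding genes. At 10 TPM it was 28 of 40 against 27.3%, and at 100 TPM 7 of 40 against 4.09%. The members were chosen for known roles, so these shares describe the list. The 7 members at 100 TPM or more were Sod1, Fth1, Txn1, Tfrc, Ftl1 (overlapped), Gpx1 and Prdx5 (overlapped). Those below 1 TPM were Srxn1, Nqo1 and Slc40a1. Among the 28 members with no overlap, 25 reached 1 TPM against 41.5% of coding genes with no overlap, 21 reached 10 TPM against 22.2% and 5 reached 100 TPM against 2.64%. Together the members held 15347, 739 and 8652 counts, and 6 of them had no fragment in replicate 2 against 1 in each of the others.

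**Figure D1:**
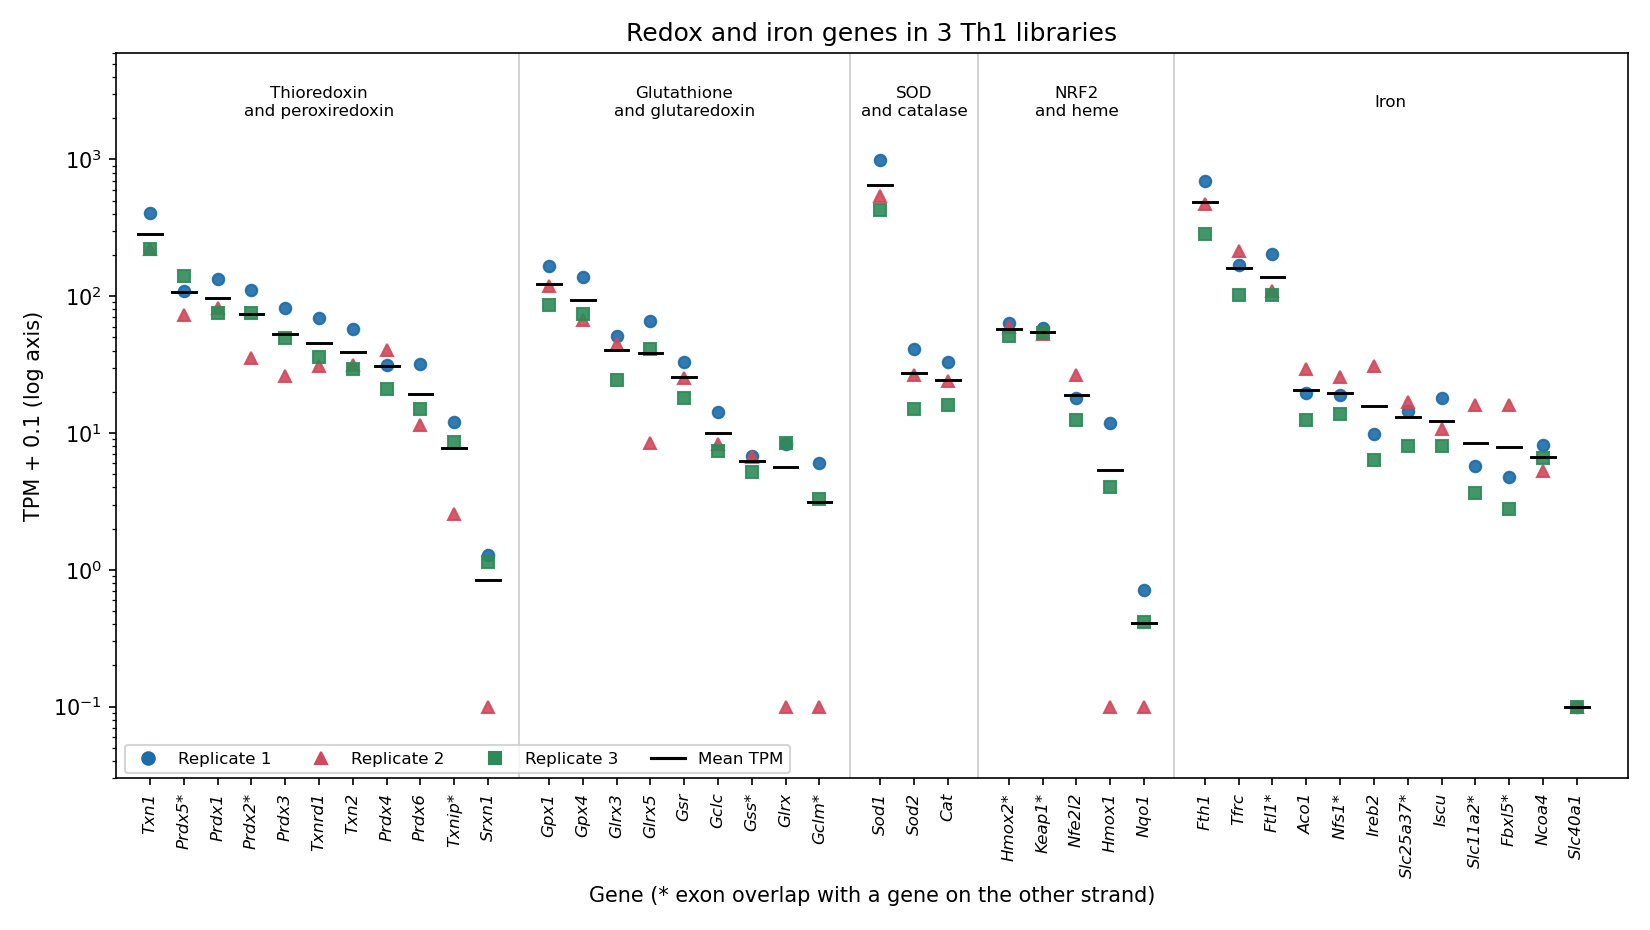
Levels of the 40 redox and iron genes in the 3 Th1 libraries, as TPM + 0.1 on a log axis, by role and in order of the mean; points are libraries and black bars the mean TPM, and an asterisk marks exon overlap with a gene on the other strand. On the strand counted, Sod1, Fth1 and Txn1 lead with means of 651, 486 and 283 TPM. Points at the bottom of the axis are libraries with no fragment, 6 of them in replicate 2.

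Txn1 led the thioredoxin genes and stood above its mitochondrial counterpart Txn2 in every library. Txn1, which reduces disulfides in the cytosol, had 405, 221 and 222 TPM in replicates 1, 2 and 3. Txn2 had 57.1, 31.3 and 29.4 TPM. Both were highest in replicate 1, and their order in the other libraries turned with the scaling: over genes with no overlap Txn1 had 597 and 888 TPM in replicates 2 and 3 and Txn2 84.5 and 118. Their log2 ratio was 2.82 ± 0.05 (SD, n = 3). Txnrd1, the selenoenzyme that recharges Txn1, had 68.8, 30.6 and 35.9 TPM. Txnip, which binds thioredoxin and inhibits it, had 11.9, 2.48 and 8.49 TPM from 78, 1 and 54 counts. Txnip was overlapped and lay below Txn1 in each library, by a mean log2 ratio of 5.17 ± 0.74 (SD, n = 3).

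All 6 peroxiredoxins reached 10 TPM, with those of the cytosol and of mitochondria both represented. Prdx5 (overlapped), found in several compartments, had 108, 72.4 and 139 TPM and was the only peroxiredoxin highest in replicate 3. Prdx1, a cytosolic peroxiredoxin served by thioredoxin, had 135, 81.4 and 75.4 TPM. Its close relative Prdx2 (overlapped) had 110, 35.5 and 74.9 TPM and was below Prdx1 in each library, by only 0.01 on the log2 scale in replicate 3. Prdx3, the mitochondrial member, had 81.9, 26.2 and 49.5 TPM, with 5 counts in replicate 2. Prdx4, which works in the endoplasmic reticulum, had 31.3, 40.4 and 20.8 TPM and was highest in replicate 2. Prdx6, the member that uses glutathione, had 31.9, 11.3 and 14.8 TPM and lay below Prdx1 by a log2 ratio of 2.35 ± 0.36 (SD, n = 3). Srxn1, sulfiredoxin, restores overoxidised peroxiredoxins. It had 7, 0 and 6 counts, or 1.19, 0 and 1.04 TPM, where the floor of 3 counts equals 8.23 TPM in replicate 2 and the exact 95% Poisson limit for 0 counts is 10.1 TPM. For genes with 0 counts named below, the floor of 3 counts is given.

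The glutathione genes were led by the peroxidases, with the enzymes of glutathione synthesis lower. Gpx1, the main cytosolic glutathione peroxidase, had 165, 118 and 85.5 TPM. Gpx4, which reduces lipid peroxides in membranes, had 139, 67.3 and 74.1 TPM. Gpx4 was below Gpx1 in each library, with a mean log2 ratio of -0.42 ± 0.33 (SD, n = 3). Gsr, glutathione reductase, had 33.2, 25.3 and 17.8 TPM and was highest in replicate 1. Txnrd1 exceeded it in each library, by 0.26 on the log2 scale in replicate 2 and by 1.03 and 0.97 in replicates 1 and 3.

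Glutathione is made in successive steps by glutamate-cysteine ligase, with a catalytic subunit Gclc and a modifier Gclm, and by the synthetase Gss. Gclc had 14.1, 8.22 and 7.30 TPM. Gclm (overlapped) had 5.93, 0 and 3.20 TPM, with a floor of 3.69 TPM in replicate 2. Gss (overlapped) had 6.71, 6.54 and 5.06 TPM and varied least of the 3. Gclc was the highest of them in each library. Without replicate 2, Gclm was below Gclc by 1.05 on the log2 scale, against a mean of 1.77 with it.

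Of the glutaredoxins, which use glutathione to reduce disulfides, Glrx3 and Glrx5 serve iron-sulfur proteins. Glrx3 had 50.9, 44.8 and 24.5 TPM. Glrx5 had 65.8, 8.32 and 41.2 TPM, with a single count in replicate 2, for which the exact 95% Poisson interval ran from 0.211 to 46.4 TPM. Their order turned with the library: Glrx5 was higher in replicates 1 and 3 and Glrx3 in replicate 2. Glrx, the cytosolic form, had 8.18, 0 and 8.40 TPM from 23, 0 and 23 counts. It was below Glrx3 in each library, though the floor for Glrx in replicate 2 was 17.3 TPM.

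Superoxide is turned into hydrogen peroxide by dismutases, and Sod1 was the highest of all members on the strand counted. Sod1, the copper and zinc enzyme of the cytosol, had 988, 539 and 426 TPM, placing its mean above 99.6% of protein-coding genes. Sod2, the manganese enzyme of mitochondria, had 41.1, 26.3 and 14.8 TPM. Sod1 exceeded Sod2 by a log2 ratio of 4.54 ± 0.23 (SD, n = 3), and its lowest library was above the highest of Sod2. Cat, catalase, which breaks down hydrogen peroxide in peroxisomes, had 33.1, 23.7 and 15.97 TPM. All 3 genes were highest in replicate 1. By TPM all were lowest in replicate 3, but scaled over genes with no overlap Sod1 was lowest in replicate 2, at 2518, 1458 and 1709 TPM. Gpx1 exceeded Cat by a log2 ratio of 2.30 ± 0.04 (SD, n = 3), 1 of the 3 smallest spreads among the pairs. In replicate 2 this ratio rests on 22 and 8 counts, whose counting error is wider than that SD.

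In the NRF2 and heme genes, Hmox2 and Keap1 were highest, and the inducible enzymes Hmox1 and Nqo1 averaged 5.22 and 0.311 TPM. Nfe2l2, which encodes NRF2, had 18.0, 26.5 and 12.3 TPM. Keap1 (overlapped), which marks NRF2 for destruction, had 58.3, 52.8 and 53.7 TPM. Keap1 was above Nfe2l2 in each library, with a log2 ratio of Nfe2l2 over Keap1 of -1.55 ± 0.54 (SD, n = 3). Hmox2 (overlapped), the constitutive heme oxygenase, had 63.4, 59.4 and 50.9 TPM. Hmox1, the inducible heme oxygenase, had 43, 0 and 14 counts, or 11.7, 0 and 3.93 TPM, with a floor of 13.3 TPM in replicate 2. Nqo1, a quinone reductase widely used as a readout of NRF2, had 2, 0 and 1 counts and a mean of 0.311 TPM. Over the group Hmox1 had 16.9 times the level per length of Nqo1, with a 95% counting interval from 5.48 to 84.1.

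The iron genes ran from ferritin, with a mean of 486 TPM for Fth1, to the exporter at 0. Fth1, the ferritin chain that oxidises iron for storage, had 700, 474 and 284 TPM. Ftl1 (overlapped), the light chain, had 204, 110 and 102 TPM and was below Fth1 in each library, by a mean log2 ratio of 1.78 ± 0.32 (SD, n = 3). Gm10252, which faces Ftl1, lay above Fth1 in each library, at 4436, 4958 and 5527 TPM, so the order of the ferritin chains depends on which strand carries the RNA. Tfrc, the transferrin receptor that brings iron into the cell, had 169, 213 and 102 TPM. It was below Fth1 in each library, least so in replicate 2, where Tfrc was highest and Fth1 was not. The log2 ratio of Tfrc over Fth1 was -2.04, -1.15 and -1.47. Those 3 genes carry the hairpin loops printed above, and so does Slc40a1.

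Slc40a1, ferroportin, the known cellular iron exporter, had 0 counts in each library. With its 9000 exon bases, 3 counts would have given 0.159, 2.58 and 0.164 TPM. Against 3 counts over the group, Tfrc was at least 1767-fold higher, and at least 706-fold higher without replicate 1. Slc11a2 (overlapped), which moves iron out of endosomes, had 5.65, 15.8 and 3.56 TPM. Slc25a37 (overlapped), mitoferrin, which moves iron into mitochondria, had 14.3, 16.7 and 7.99 TPM. Slc11a2 was below Tfrc and Slc25a37 in each library, though by only 0.07 on the log2 scale from Slc25a37 in replicate 2.

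Of the genes that read cellular iron, Aco1 and Ireb2 encode the iron regulatory proteins and Fbxl5 (overlapped) the ligase subunit that removes IRP2, the product of Ireb2. Aco1 had 19.5, 29.3 and 12.5 TPM. Ireb2 had 9.74, 31.03 and 6.27 TPM, and Fbxl5 had 4.66, 15.9 and 2.67 TPM. Both Ireb2 and Fbxl5 were far higher in replicate 2, and the log2 ratio of Fbxl5 over Ireb2 was -0.94 ± 0.04 (SD, n = 3). In replicate 2 that ratio rests on 20 and 38 counts, whose counting error is wider than that SD. Aco1 was above Ireb2 in replicates 1 and 3 and level with it in replicate 2, at 0.93, 0.89 and -0.08 on the log2 scale. Ncoa4, the receptor that delivers ferritin for breakdown, had 8.06, 5.21 and 6.51 TPM. Iscu, the scaffold of iron-sulfur cluster assembly, had 17.8, 10.7 and 7.90 TPM from 81, 3 and 35 counts, and the sulfur donor Nfs1 (overlapped) had 18.9, 25.7 and 13.6 TPM. Nfs1 was above Iscu in each library, by 0.08 on the log2 scale in replicate 1.

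Set against each other as groups, the thioredoxin genes had the highest median level and this held in each library. On the log2(TPM + 1) scale, the mean over libraries of the group median was 5.45 for thioredoxin, 4.18 for glutathione and 3.90 for iron genes, against 3.73 for coding genes of at least 1 TPM. The thioredoxin median exceeded the glutathione median by 1.03, 1.79 and 0.97 in replicates 1, 2 and 3. It exceeded the iron median by 2.04, 0.57 and 2.04. The glutathione median was above the iron median by 1.01 and 1.07 in replicates 1 and 3 and was below it in replicate 2, at -1.22. Its mean difference of 0.29 ± 1.31 (SD, n = 3) was smaller than its spread. Without replicate 1 it was -0.07 and without replicate 3 -0.11. On the members with no overlap, with the scaling kept, thioredoxin exceeded glutathione by only 0.29, 0.28 and 0.39, and iron by 1.76, 0.08 and 1.91. The smaller distance from glutathione came with the set of members, as the scaling was unchanged. Rescaling the same members over genes with no overlap gave 0.33, but rescaling can move such a difference only through the pseudocount. The iron genes, with the lowest median of these groups, held 3 of the 7 members at 100 TPM.

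Of 26 gene pairs compared within libraries, 23 kept 1 direction in all 3. In 16 of these the gene named first was the higher, in 7 the other gene. A two-sided exact sign-flip permutation test cannot go below 0.25 with 3 libraries, which is the p of each of these 23 pairs. Glrx3 against Glrx5 and Aco1 against Ireb2 changed direction between libraries. Hmox1 was above Nqo1 in replicates 1 and 3, and the pair tied in replicate 2 because both genes had 0 counts there. Of 14 pairs made only of genes with no overlap, 11 kept 1 direction. The smallest spreads were those of Fbxl5 with Ireb2, Gpx1 with Cat and Txn1 with Txn2. Each of these genes had 38 counts or fewer in replicate 2, where counting error is wider than these spreads. The widest spreads were those of Glrx with Glrx3 and Hmox1 with Hmox2, where replicate 2 had 0 counts in 1 gene.

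**Figure D2:**
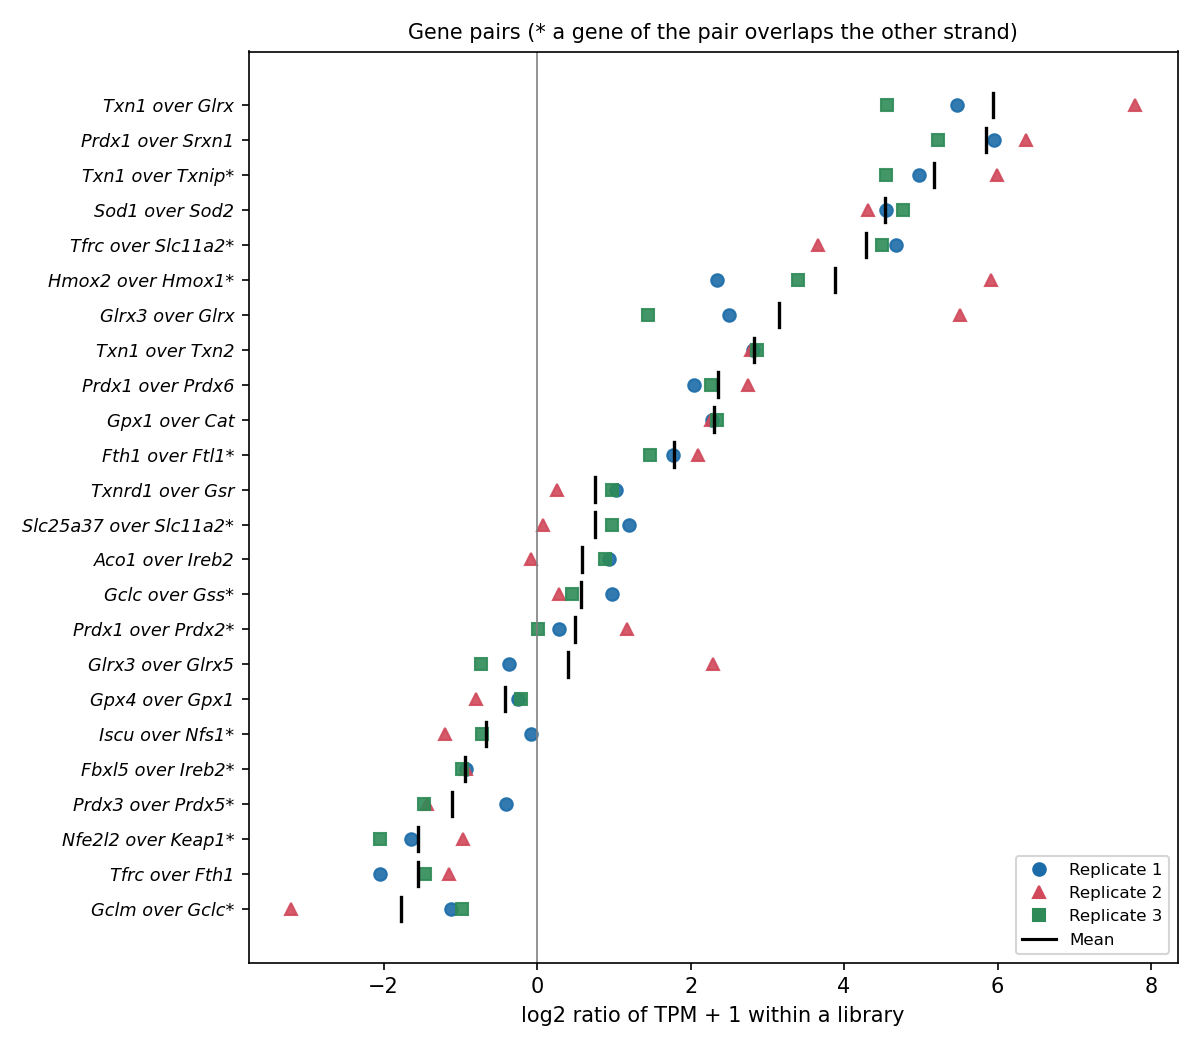
Log2 ratio of TPM + 1 of the first over the second gene within each library for 24 pairs, with the mean as a black bar and an asterisk where a gene of the pair is overlapped; Tfrc against Slc40a1 and Nqo1 against Hmox1 are not drawn because 1 gene of each had 3 counts or fewer. Txn1 over Txn2 (2.82), Gpx1 over Cat (2.30) and Fbxl5 over Ireb2 (-0.94) have the closest points, and the points of Glrx3 over Glrx5 lie on both sides of 0.

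Between the libraries, 11 members differed, with replicate 2 lowest in 5 thioredoxin genes and highest in 3 iron genes. Further genes of these pathways, given at the end, did not all run this way. A chi-square test per gene with TMM-scaled library sizes asked which genes differed by at least 2-fold, at a Benjamini-Hochberg adjusted p under 0.05. It compares libraries with counting error only. It called 11 of the 37 members with a mean count of at least 10, against 32.2% of the 11595 genes tested, so the share of members called was near that of all genes. The called thioredoxin genes were Txnrd1, Prdx2 (overlapped), Prdx3, Prdx5 (overlapped) and Prdx6, and each was lowest in replicate 2. Also called were Gpx4, lowest in replicate 2, and Sod2 and Hmox1, both highest in replicate 1. Hmox1 had no fragment in replicate 2. The called iron genes were Slc11a2 (overlapped), Ireb2 and Fbxl5 (overlapped), all highest in replicate 2. By direction, 7 of 37 members were called with replicate 1 highest (7.59% of genes tested), 3 with replicate 2 highest (10.5%) and 1 with replicate 3 highest (14.1%). With counts under 3 set to 3, the lowest library was replicate 1 in 0 (9.87%), replicate 2 in 6 (14.3%) and replicate 3 in 5 (7.97%). By this rule Hmox1 falls under replicate 3, although it had no fragment in replicate 2.

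Ireb2 had 193, 38 and 121 counts, and its ratio of highest to lowest library was 3.65 (chi-square test, Benjamini-Hochberg adjusted p = 1.58e-12). Its exact 95% Poisson interval in replicate 2, from 22.0 to 42.6 TPM, lay above both other libraries. The ratio of Fbxl5 was 4.38 (chi-square test, adjusted p = 3.18e-08), from 95, 20 and 53 counts. Slc11a2 had 75, 13 and 46 counts and a ratio of 3.28 (chi-square test, adjusted p = 8.42e-04). For Prdx2 the ratio was 3.04 (chi-square test, adjusted p = 2.45e-04), from 704, 14 and 465 counts. Prdx3 had a ratio of 3.06 from 253, 5 and 149 counts (chi-square test, adjusted p = 0.0233), and Prdx6 one of 2.76 (chi-square test, adjusted p = 1.40e-05). The ratio was 2.20 for Txnrd1, 2.61 for Prdx5, 2.02 for Gpx4, 2.01 for Sod2 and 2.16 for Hmox1. Several of these rest on fewer than 20 counts in replicate 2. Where the count expected there is so low, the chi-square p-values are only approximate.

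Leaving out replicate 2 ended all of these calls: 0 of 37 members passed, against 14.9% of genes tested. At an adjusted p under 0.05 with any ratio, 16 of 37 members differed between replicates 1 and 3, against 36.9% of genes. The largest ratios over the 37 were 1.99 for Hmox1 (chi-square test, adjusted p = 0.0587), 1.93 for Prdx5 (overlapped; adjusted p = 5.93e-27) and 1.86 for Sod2 (adjusted p = 4.55e-08). Without replicate 1, 5 members passed (18.0% of genes), and without replicate 3 it was 7 (11.8% of genes). Prdx2, Slc11a2, Ireb2 and Fbxl5 passed in both. Among genes with no overlap, scaled on these alone, 3 of 25 members passed, namely Txnrd1, Prdx6 and Ireb2, against 17.3% of such genes. The part of depth in the values of replicate 2 was not tested.

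Log2 ratios of replicate 2 over replicate 1 were taken on TMM-scaled counts, with counts under 3 set to 3. The thioredoxin genes had a median of -0.84 and the iron genes one of 0.36, against 0.05 for all genes tested. This floor applied in replicate 2 to 3233 of the 11595 genes tested. It applied to 1 of the 10 thioredoxin genes and 0 of the 11 iron genes. By counts, 7100 of all 11595 genes tested were lower in replicate 2 and 4495 were not, so without the floor their median would be negative. Of the 10 thioredoxin genes tested, 9 were lower in replicate 2, all but Prdx4. Of the 11 iron genes tested, 7 were higher there: Tfrc, Slc11a2, Slc25a37, Aco1, Ireb2, Fbxl5 and Nfs1. The 4 lower were the ferritin chains Fth1 and Ftl1, the ferritin receptor Ncoa4 and the scaffold Iscu. Exon lengths were 866, 1340, 4452 and 2176 bp in these 4, and ran from 3612 bp (Nfs1) to 9740 bp (Fbxl5) in the 7 higher. In the 9 thioredoxin genes lower there, lengths ran from 1051 bp (Txn1) to 7086 bp (Txnrd1). The part of exon length in these differences was not tested. In replicate 3 over replicate 1, the members had a median of -0.36, all genes tested -0.18 and genes tested with no overlap -0.30. Overlapped genes took 51.7% of the counts in replicate 1 and 66.5% in replicate 3. The members with no overlap and with fragments had a median log2 of replicate 3 over 1 of -0.91 by TPM and of -0.25 when TPM was scaled over genes with no overlap.

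**Figure D3:**
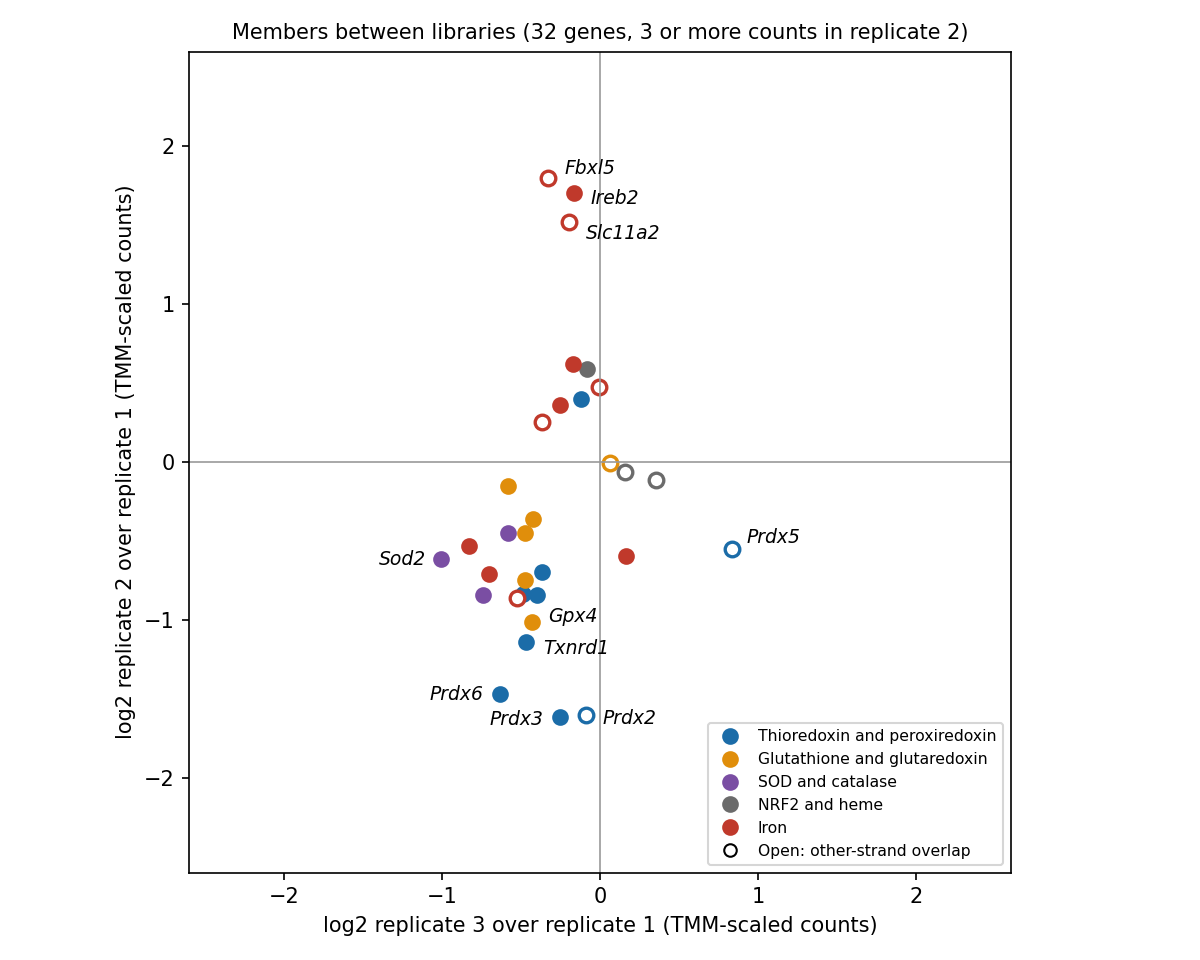
Log2 of TMM-scaled counts in replicate 3 over 1 (x axis) and in replicate 2 over 1 (y axis) for the 32 tested members with 3 or more counts in replicate 2, coloured by role and open where overlapped. Fbxl5, Ireb2 and Slc11a2 lie at the top (1.80, 1.70 and 1.52) and Prdx3, Prdx2 and Prdx6 at the bottom (-1.61, -1.60 and -1.47); names mark genes called varying.

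Of the 40 members, 12 shared exon bases with a gene on the other strand, and in 9 of them a facing gene held more counts than the member. The plainest case was Ftl1, which had 572, 19 and 279 counts while Gm10252, sharing 355 bases, had 7717, 533 and 9364. Over the libraries Gm10252 held 20.3 times the counts of Ftl1. The facing antisense gene Gm15441 held 12.1 times the counts of Txnip, Rnaseh2a 6.29 times those of Prdx2, Acss2 5.39 times those of Gss and Cdip1 4.04 times those of Hmox2. Junb, also facing Prdx2, held 3.49 times its counts. Ratios for Keap1 with Gm16754 (3.23), Nfs1 with Romo1 (3.17), Slc11a2 with Gm5475 (1.71) and Prdx5 with Trmt112 (1.47) were lower. Gm17494 had 48, 3 and 45 counts against 78, 0 and 41 for Gclm, fewer only in replicate 1 and in the sum. Bst1 was below Fbxl5, and both genes facing Slc25a37 had 0 counts. The mitochondrial mt-Nd6, encoded on the other strand from mt-Co1, had 18316, 1673 and 13631 counts against 10721, 546 and 5027 for mt-Co1. How much of each overlapped level belongs to the facing gene was not tested. Exons of Gclm (244 bases), Ftl1 (109) and Nfs1 (256) also shared bases with a gene on the same strand.

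**Figure D4:**
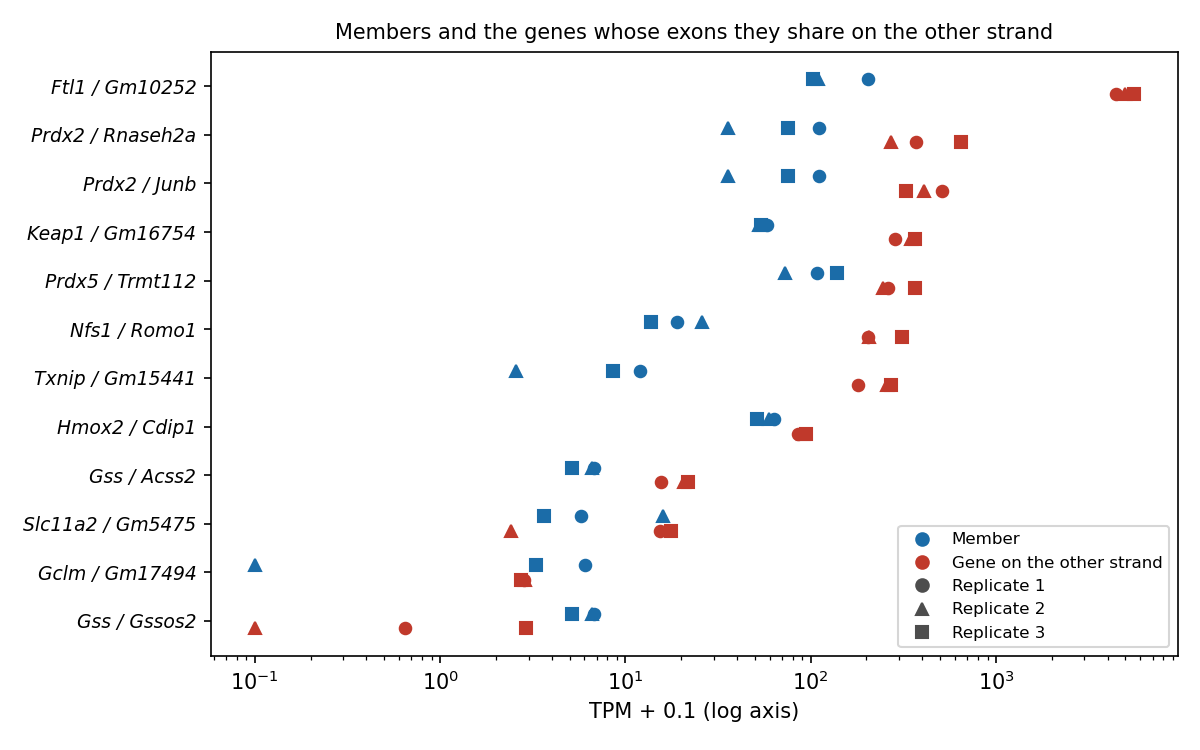
TPM + 0.1 on a log axis of overlapped members (blue) and of the genes facing them on the other strand (red) in each library, for 12 pairings in which the facing gene had more than 3 counts; shapes mark replicates. Gm10252 lies at 4436, 4958 and 5527 TPM against 204, 110 and 102 TPM for Ftl1, while Gssos2 lies below Gss in each library.

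Other genes of the same pathways, 112 in all, gave context for the members, and 90 of them reached 1 TPM. At 100 TPM or more were 4: the mitochondrial chaperone Hspa9 (322 TPM), the iron chaperones Pcbp1 (overlapped, 319 TPM) and Pcbp2 (overlapped, 220 TPM), and Akr1a1 (104 TPM). All 15 further thioredoxin genes reached 1 TPM, led by the selenoprotein Selenow at 99.3 ± 52.0 TPM (SD, n = 3), and 4 of 14 tested differed between libraries. Of these 4, Selenow was lowest in replicate 2, but Txnrd3, Txndc5 and Txndc9 were highest there. Txnrd3 had 6.07, 27.3 and 2.77 TPM, from 36, 10 and 16 counts. Mitochondrial Txnrd2 (overlapped) had 24.3, 26.4 and 24.6 TPM, below Txnrd1 in each library. Of 24 further glutathione genes 17 reached 1 TPM, led by Slc3a2 at 79.5 ± 33.8 TPM (SD, n = 3). Its partner in cystine import, Slc7a11, had 12, 0 and 9 counts and 0.243 ± 0.216 TPM (SD, n = 3). Of 19 further genes of iron uptake, storage and export 11 reached 1 TPM and 6 had no fragment, among them transferrin (Trf), hepcidin (Hamp) and mitochondrial ferritin (Ftmt). The 3 of these that differed were Slc39a14 and Cp (overlapped), both lowest in replicate 2, and Mcoln1, highest there. Across all 112 genes, 23 of 84 tested differed between libraries (32.2% of all genes tested), and 7 of 89 without replicate 2 (14.9%).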

How the data were processed

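RNA of 3 Th1 libraries was measured. The files as deposited held counts, unnormalised fragments assigned to each gene, made with featureCounts 1.4.6-p4, with both ends mapped, strand setting 1 and GENCODE mouse release 13 on mm10, per the file headers. The aligner's version is not given in the sources used here. Value columns not used numbered 0. Names came from GENCODE release 21 (GRCm38, the assembly of mm10) by gene identifier without version, for 50376 of 50600 genes (224 unmatched), and coordinates from the deposited files.

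TPM was computed from the deposited counts and exon lengths, with a pseudocount of 1 TPM on the log2 scale. Means are over libraries with the sample SD. Poisson intervals (95%) and the floor of 3 counts cover counting error only, since copies made by PCR are not independent molecules. The chi-square test used edgeR 4.0.16 TMM factors (R 4.3.3), a mean count of at least 10 and a lowest library set to at least 3 counts. It was tested on simulated data with increases in replicate 3 only. That simulation does not cover changes in the shallow replicate 2, on which the member calls rest. DESeq2 1.42.0 size factors were an alternative. Python 3.11.15, pandas 2.3.3, numpy 2.4.6 and scipy 1.17.1 did the rest.

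The text names members, genes of the pathway and marker lists and facing genes, with values per library for genes in pairs, the highest and lowest 3 of each group and those called. Members and lists were chosen with earlier results of these data known. Alternatives left out replicates or overlapped genes and changed scaling, pseudocount, filters and ratio. Added after the data were seen were dropping the minimum ratio with replicate 2 left out, and members with no overlap with the scaling kept.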

Additional observations from a re-analysis of the deposited data

How the results depend on the processing

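No paired analysis was possible because the libraries form 1 group. Depth limits replicate 2 most: 24 of 40 members had at least 10 counts there, against 37 in each of the others. Of 261 recomputed member levels 234 moved by less than 1 SD. With 3 libraries, leaving out 1 or taking the median cannot move a mean by 1 SD, so those settings could not fail. Of the levels scaled by TMM or DESeq2 factors, which could, 0 moved by more than 1 SD. The remaining 27 of the 261 were those scaled over genes with no overlap, a smaller total by construction. That setting also holds only the 28 members with no overlap: their median level was 76.6 TPM, against 26.4 TPM with the scaling kept and 24.8 TPM for all 40, and 12 of 28 reached 100 TPM, against 5 of 28 with the scaling kept. The thioredoxin minus glutathione difference was 0.33 there and 0.32 with the scaling kept. In this setting 11 pairs kept 1 direction, of the 14 with no overlapped gene. Scaling cannot change the order of genes within a library, so this number could not differ. It left 1201 genes and 3 of 25 members varying between libraries (17.3% of genes). A mean count of at least 100 left 1750 genes (34.1%) and 8 of 21 members, from fewer tested. A ratio of at least 1.5 raised the members to 19 of 37, against 47.8% of genes. With DESeq2 size factors 9 of 37 members varied (31.9% of genes), with library totals 13 (35.4%). Leaving out 1 replicate gave from 1332 to 1941 genes and from 0 to 7 members. The glutathione minus iron difference ran from -0.11 to 1.04 when 1 replicate was left out, and was -0.07 without replicate 1. Glrx3 over Glrx5 turned to -0.55 without replicate 2 and -0.36 by the median, and was 0.97 without replicate 3. For both reversals the cause was not tested. Of 144 recomputed pair ratios, 142 kept their direction. The 23 pairs with 1 direction in every library could not reverse under these settings, nor could Nqo1 over Hmox1. Only Glrx3 over Glrx5 and Aco1 over Ireb2 could, so the number kept was largely fixed in advance.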

Other observations

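Downstream of iron uptake, all 19 further genes of iron-sulfur cluster assembly and all 9 genes of heme synthesis reached 1 TPM. Hspa9, the chaperone that hands clusters from the scaffold, led the first list at 401, 374 and 192 TPM in replicates 1, 2 and 3. Mms19 (overlapped), which passes clusters to DNA repair and replication enzymes, had 57.6, 46.8 and 74.7 TPM and was highest in replicate 3. In heme synthesis Ppox (overlapped) was highest, at 76.4, 97.7 and 106 TPM, and Alad had 40.4, 66.2 and 23.4 TPM. Alas1 (overlapped), the first enzyme outside the red cell lineage, had 15.7, 20.1 and 7.32 TPM, and Fech, which inserts iron into heme, had 15.99, 21.3 and 7.11 TPM. Alad, Alas1 and Fech were each highest in replicate 2 and lowest in replicate 3. Of the 19 iron-sulfur genes 4 differed between libraries and of the 9 heme genes 4 did, against 32.2% of all genes tested. Without replicate 2 the counts were 1 and 2, against 14.9%.

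Of 10 genes named for ferroptosis, cell death by lipid peroxides that Gpx4 prevents, 6 reached 1 TPM and 0 passed the chi-square test between libraries among 6 tested, against 32.2% of all genes. Without replicate 2, 1 of 7 passed, against 14.9%, namely Lpcat3 (overlapped), which had 31.8, 61.6 and 43.0 TPM. Acsl4, which loads membranes with oxidisable lipids, had 54.3, 51.6 and 33.2 TPM, and Alox5 had no fragment. Aifm2 (overlapped), which protects membranes beside Gpx4, had 4.53, 0 and 4.53 TPM. The processed pseudogenes named after Txn1, Prdx6, Gpx4, Fth1 and Ftl1 held 0 or 1 counts in each library, and how fragments that match several places were counted is not given in the sources used here.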
